A study of Mus musculus with 6 samples.

Results

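The cholesterol supply genes described here are 32 genes for making, importing, storing and exporting sterol, chosen as a fixed list of symbols and all found among the 30406 genes that every library lists. They comprise 18 enzymes of cholesterol synthesis, 5 regulators of the SREBP transcription factors, 6 genes of uptake, transport and ester turnover, and 3 genes of efflux. Their raw UMI counts (unique molecular identifiers, 1 per captured RNA molecule) were followed across the zones of the adrenal cortex, across the other nuclei of the gland, and between Tmem127 knockout (KO) and wild-type (WT) mice. Tmem127, a tumour suppressor of phaeochromocytoma, encodes a membrane protein of endosomes and lysosomes. Nuclei of whole adrenal glands were sorted on a DNA stain and sequenced with a droplet-based 3′ method, 1 pair of glands per library. The mice were female, of strain C57BL/6 J and 10 to 11 months old. The KO group holds 2 libraries and the WT group 3, and nothing else in the labels separates the groups. The allele, the deleted part of Tmem127 and the mouse line are not stated in the labels, and KO and WT below mean the libraries so labelled. The labels of 1 further library contradict each other, WT in its title and KO in its genotype. It entered no group, and its values are given as those of the library with conflicting labels.

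Animal cells build cholesterol from acetyl-CoA through mevalonate, squalene and a series of sterol intermediates. The membrane-bound factor SREBP-2 turns the enzymes on when SCAP carries it to the Golgi, and INSIG proteins hold SCAP back when sterol is plentiful. Steroid-making cells of the mouse adrenal cortex take up cholesteryl ester from high-density lipoprotein through the receptor SR-BI, the product of Scarb1, store it as ester droplets made by the enzyme encoded by Soat1, and free it again with the hormone-sensitive lipase encoded by Lipe.

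RefSeq promoter windows (build GRCm38.p6) were matched for 25 of the 32 genes (all but Fdps, Fdft1, Sqle, Scarb1, Npc1, Stard4 and Abcg1), and 4 are printed because these genes show the patterns described below: Hmgcs1 and Nsdhl, enzymes that were high in 1 small inner cluster of the cortex, Dhcr7, an enzyme with another zonal pattern, and Abca1, the exporter whose level was graded over the cortical clusters. Each shows the 250 bases before the RefSeq start, 5′ to 3′ on the gene's strand, and for Dhcr7, with 3 listed starts, before the most upstream one. Capitals mark matches, on either strand, to the sterol regulatory element TCACNCCAC, the CCAAT box CCAAT, the GC box GGGCGG or the SF-1 site CAAGGTCA.
Hmgcs1, chr13:119690101-119690350, plus strand: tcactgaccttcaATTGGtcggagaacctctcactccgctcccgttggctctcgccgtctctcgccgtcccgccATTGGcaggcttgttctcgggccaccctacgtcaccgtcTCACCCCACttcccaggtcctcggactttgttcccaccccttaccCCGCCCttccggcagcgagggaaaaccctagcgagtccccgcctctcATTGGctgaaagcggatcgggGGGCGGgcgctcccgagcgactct
Nsdhl, chrX:72918271-72918520, plus strand: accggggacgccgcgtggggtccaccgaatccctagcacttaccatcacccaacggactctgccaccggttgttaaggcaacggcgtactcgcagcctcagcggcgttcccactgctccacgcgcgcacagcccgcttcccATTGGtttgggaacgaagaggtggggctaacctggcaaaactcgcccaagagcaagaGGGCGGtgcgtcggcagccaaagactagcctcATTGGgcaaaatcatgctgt
Dhcr7, chr7:143822917-143823166, plus strand: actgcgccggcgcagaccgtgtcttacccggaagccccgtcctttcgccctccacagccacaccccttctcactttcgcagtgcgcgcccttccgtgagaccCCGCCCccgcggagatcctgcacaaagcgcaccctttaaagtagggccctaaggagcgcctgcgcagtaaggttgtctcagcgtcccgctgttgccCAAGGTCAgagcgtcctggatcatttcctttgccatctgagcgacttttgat
Abca1, chr4:53159896-53160145, minus strand: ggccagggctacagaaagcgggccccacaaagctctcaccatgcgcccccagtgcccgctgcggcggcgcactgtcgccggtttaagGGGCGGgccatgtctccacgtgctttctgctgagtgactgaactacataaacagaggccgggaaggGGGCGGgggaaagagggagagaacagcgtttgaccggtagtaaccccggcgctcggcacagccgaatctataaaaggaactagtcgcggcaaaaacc

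The window of Hmgcs1 held the sterol regulatory element, which 1 of the 25 matched genes and 1.22% of all 27025 genes with a window held. That of Dhcr7 was likewise the single match to the SF-1 site among the 25, against 1.51% of all genes. The CCAAT box was found in 20 of the 25 and in 37.5% of all genes, and the GC box in 22 of the 25 and in 35.4% of all genes. A gene counts where the 250 bases before any of its listed starts hold a match, and the matches printed do not overlap. A match is a description of the letters, and its absence from these windows says nothing about a factor.

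The 6 libraries hold 21724 barcodes and between 4825169 and 43377724 UMIs each, with medians of 1289 to 7675 UMIs per barcode. KO replicate 2 and WT replicate 2 are the shallow ones. Between 2 and 9 barcodes recur in each pair of libraries. Tmem127 itself was read at 45.9 and 45.0 CPM (a gene's UMIs scaled to a common total in each library and class) in KO replicates 1 and 2 and at 38.0, 38.1 and 36.1 CPM in WT, so its RNA was not lower in KO, and without the deleted part this checks no label. In total 21032 nuclei were kept and fell into 26 clusters, formed with the 32 genes left out of the clustering features, of which 2 would otherwise have been among them. The cortex (9449 nuclei) made 5 of them. The zona glomerulosa-like cluster (3115 nuclei, the outer, aldosterone-making zone) passed 10 markers of that zone, and the zona fasciculata-like cluster (2162 nuclei, the corticosterone-making zone) was led by Dab1, Abcb1b and Akr1b7. An unnamed cluster led by Oca2 held 2154 nuclei. A pair of clusters passed markers of the inner cortex and had Akr1d1 and Cyp2f2 among their leading genes, a larger one of 1518 nuclei and a smaller one of 500, which was singled out after its values were seen.

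Scarb1 and Dhcr7 set the zona fasciculata-like nuclei apart from the zona glomerulosa-like ones. Of the 27 genes over 5 CPM in either zone, 9 were higher in zona fasciculata-like nuclei by a log2 difference of at least 1 on average and in the same direction in 5 of 5 KO and WT libraries, a rule that 7.79% of all 10636 genes over that level met. They were Scarb1, Dhcr7, Abca1, Sqle, Idi1, Lipe, Srebf1, Sc5d and Acat2. None was lower by the same rule, which 8.44% of genes met. The median difference was 0.89 on the log2 scale over the 27 genes and 0.07 over all genes. Clusters were formed from the same nuclei, so these differences, taken within each library on log2(CPM + 1), are given without a test.

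Scarb1 (chr5:125277087-125341094, minus strand, GENCODE on mm10) encodes the lipoprotein receptor through which cortical cells take up cholesteryl ester. In zona glomerulosa-like nuclei it was read at 329 and 176 CPM in KO replicates 1 and 2, at 455, 266 and 283 CPM in WT replicates 1, 2 and 3, and at 1414 CPM in the library with conflicting labels. In zona fasciculata-like nuclei the values were 2103 and 1433 CPM in KO, 2411, 2468 and 5666 CPM in WT, and 5980 CPM in the library with conflicting labels. Every zona fasciculata-like value was above every zona glomerulosa-like value. The difference within libraries was 3.12 ± 0.74 on the log2 scale (SD, n = 5). WT replicate 3 and the library with conflicting labels stood well above the other 4 in zona fasciculata-like nuclei.

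Dhcr7 (chr7:143823145-143848410, plus strand), the reductase of the last step of one branch of the pathway, showed the next largest difference, 2.78 ± 0.39 on the log2 scale (SD, n = 5). It was read at 13.4 and 7.30 CPM in KO and 13.9, 13.8 and 10.5 CPM in WT in zona glomerulosa-like nuclei. The values in zona fasciculata-like nuclei were 72.5 and 55.5 CPM in KO and 133, 80.1 and 103 CPM in WT, above every zona glomerulosa-like value. Of the 15 synthesis enzymes over 5 CPM, 5 passed the fold. Beside Dhcr7, Sqle (squalene epoxidase) differed by 1.74 ± 0.69, Idi1 (isopentenyl diphosphate isomerase) by 1.47 ± 0.44, Sc5d (a sterol desaturase) by 1.19 ± 0.51 and Acat2 (the thiolase that opens the pathway) by 1.02 ± 0.59. Sqle and Idi1 rested on few molecules, with means of 1.8 CPM each in zona glomerulosa-like nuclei. They passed the 5 CPM level through the zona fasciculata-like cluster alone, so they could hardly have come out lower. Fdps, at 1.51 ± 0.91, and Cyp51, at 1.02 ± 1.15, passed in size and missed in 1 library each. Mvk, Pmvk, Lss and Nsdhl, enzymes of the mevalonate and sterol steps, lay between −0.14 and 0.32. Hmgcs1 (0.77 ± 0.85), Mvd (0.62 ± 0.39), Fdft1 (0.46 ± 0.68) and Msmo1 (0.84 ± 0.52) fell short of the fold. Tm7sf2, Hsd17b7, Ebp, Stard4 and Abcg1 were the 5 genes under 5 CPM in both zones.

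RNA of the genes for ester formation and lysosomal export was nearly even on average across these zones. Soat1 (chr1:156424525-156474331, minus strand), which makes the stored ester, averaged 842 ± 99.1 CPM in zona glomerulosa-like and 941 ± 253 CPM in zona fasciculata-like nuclei (SD, n = 5), a difference of 0.12 ± 0.40 on the log2 scale. Npc1 and Npc2, which pass cholesterol out of the lysosome, differed by 0.17 ± 0.21 and −0.05 ± 0.35. Lipe, the lipase that frees the ester, was higher in zona fasciculata-like nuclei by 1.45 ± 0.28. Among the regulators, Srebf1 differed by 1.23 ± 0.34, Srebf2 by 0.89 ± 0.52, Scap by 0.77 ± 0.35 and Insig2 by −0.07 ± 0.35, so that Srebf1 alone of the 5 passed the fold on average with the same direction in 5 of 5 libraries. Insig1 passed in size, at 1.05 ± 0.85, and missed in 1 library. Apoe, a carrier of exported lipid, differed by 0.91 ± 0.40.

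A second list of 43 other genes of sterol handling, of which 38 were over 5 CPM, held 13 that were higher in zona fasciculata-like nuclei and 1 that was lower. Some of the 13, among them Cd36 at 3.28 CPM in zona glomerulosa-like nuclei, passed that level through the zona fasciculata-like cluster alone. Cd36, a scavenger receptor for lipids, differed by 5.08 ± 1.03, Gramd1b, which carries cholesterol from the plasma membrane to the endoplasmic reticulum, by 2.69 ± 0.29, Abca7, a lipid exporter, by 1.67 ± 0.69, and Cyp11a1, which cuts cholesterol to pregnenolone, by 1.49 ± 0.46. Cyp46a1, a sterol hydroxylase, stayed under 5 CPM.

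**Figure D1:**
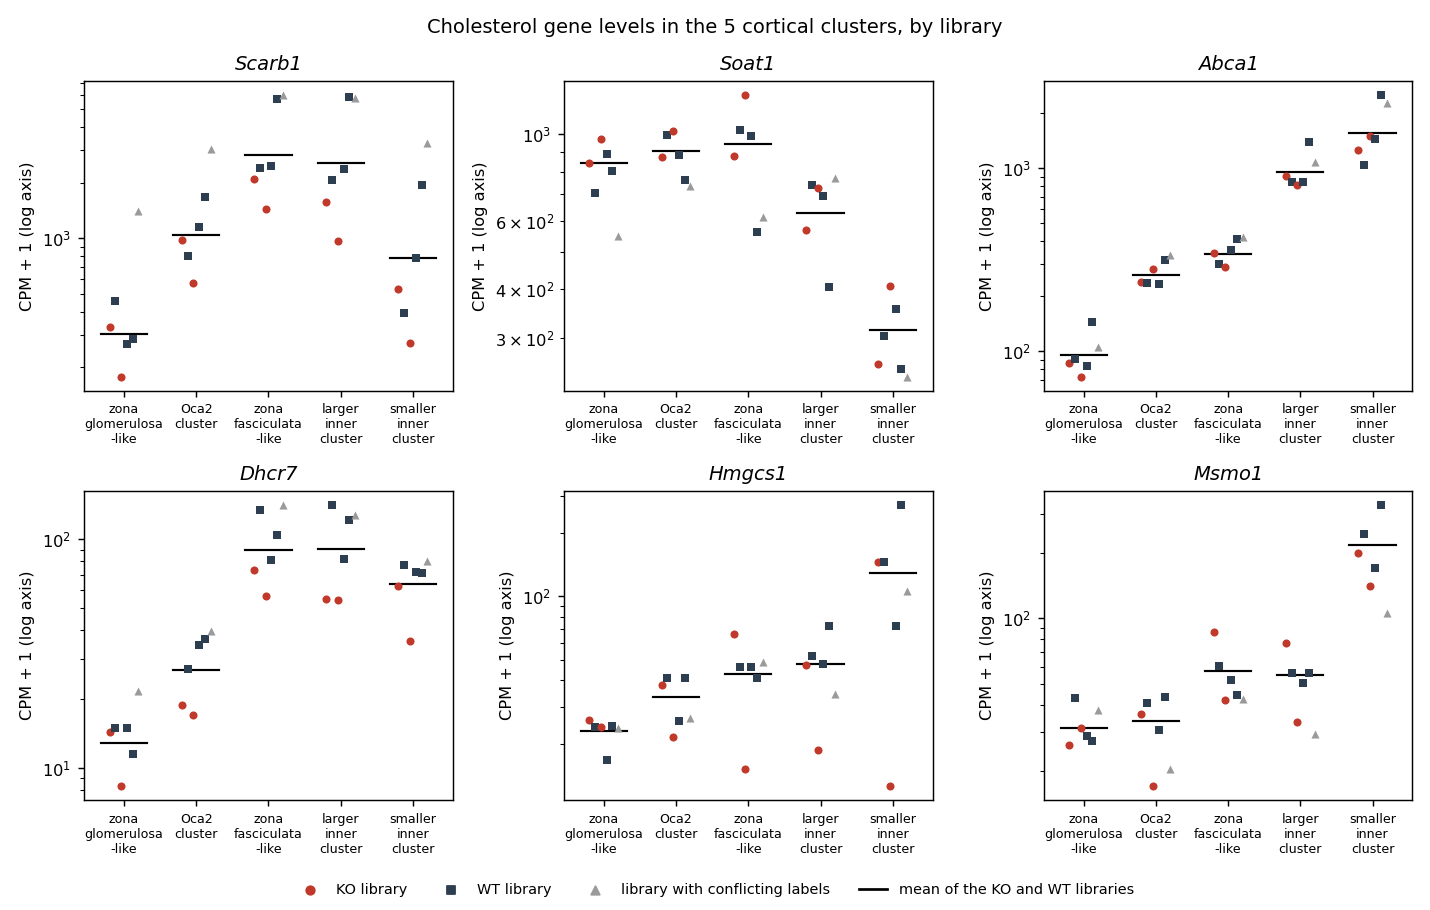
CPM + 1 on a log axis for 6 genes in the 5 cortical clusters, 1 point per library (circles KO, squares WT, triangles the library with conflicting labels), with lines at the mean of the 5 KO and WT libraries. Scarb1 and Dhcr7 are lowest in the zona glomerulosa-like cluster, Soat1 averages 842 to 941 CPM in the first 3 clusters and 315 CPM in the smaller inner one, and Abca1 climbs from 94.6 to 1554 CPM.

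The smaller inner cluster carried more RNA of the synthesis enzymes and less of Scarb1 and Soat1 than the zona fasciculata-like cluster. Against zona fasciculata-like nuclei, 13 of 31 cholesterol genes over 5 CPM were higher by the same rule, a mean log2 difference of at least 1 with 1 direction in 5 of 5 libraries (3.56% of 10544 genes met it), and 2 were lower (9.8% were). In single libraries some of the 13 lay under that size. Of the 18 synthesis enzymes, 11 were higher and 0 lower. Of the 11, Pmvk, Hsd17b7 and Ebp averaged 4.68, 4.69 and 3.05 CPM in zona fasciculata-like nuclei. They passed the 5 CPM level through the smaller inner cluster alone, so they could hardly have come out lower. The median over the 18 was 1.47 on the log2 scale, while over all genes it was −0.19. It includes Pmvk, Hsd17b7, Ebp and also Tm7sf2, which at 3.46 CPM in zona fasciculata-like nuclei could likewise hardly have come out lower. The cluster was singled out after its values were seen, so these counts and the median are a description only. Summed, the 18 enzymes stood at 1146 and 477 CPM in KO and 1089, 733 and 1419 CPM in WT in the smaller inner cluster, with 899 CPM in the library with conflicting labels, and at 225 to 503 CPM in zona fasciculata-like nuclei of the KO and WT libraries. The sum was higher in the smaller inner cluster within every library, and KO replicate 2, a shallow library, was the lowest in both. The 500 nuclei had a median of 4701 UMIs, fewer than the 6855.5 of the zona fasciculata-like ones. Where the 32 genes were allowed among the clustering features, the cluster that holds these nuclei grew to 1368, and the counts became 6 higher and 0 lower.

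Msmo1, a methylsterol oxidase that acts after lanosterol, shows the pattern with the most molecules among the enzymes. In the smaller inner cluster it was read at 198 and 140 CPM in KO replicates 1 and 2 and at 243, 170 and 331 CPM in WT. In zona fasciculata-like nuclei it was read at 85.4 and 41.1 CPM in KO and at 59.6, 51.3 and 43.6 CPM in WT. Every value of the smaller inner cluster was higher than every zona fasciculata-like value, and the difference within libraries was 1.91 ± 0.62 (SD, n = 5).

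The other mevalonate and isoprenoid enzymes past the fold were Fdps, farnesyl diphosphate synthase, at 2.89 ± 0.54, Idi1 at 2.29 ± 0.76 and Pmvk, phosphomevalonate kinase, at 1.29 ± 1.01. Fdps was read at 165 and 159 CPM in the 2 libraries made with the later gene annotation (KO replicate 1 and WT replicate 1) and at 10.9 to 23.3 CPM in the other KO and WT libraries. Its level was thus split along the batches, which differ in Cell Ranger version as well as gene list, and the cause was not tested. The difference between clusters was taken within each library. Hmgcs1, HMG-CoA synthase, averaged 129 ± 97.1 CPM in the smaller inner and 42.0 ± 18.2 CPM in the zona fasciculata-like cluster and was higher in 4 of 5 libraries. In the exception, KO replicate 2, it rested on 1 UMI in the smaller inner cluster. That library gave the cluster 55 nuclei with a median of 1460 UMIs. Genes counted as higher, Ebp, Sqle and Hsd17b7 among them, likewise rested on very few UMIs there, so their direction in that library is weakly supported.

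Further along the pathway, Sqle differed by 2.32 ± 0.93, Hsd17b7 by 1.92 ± 0.79, Fdft1, squalene synthase, by 1.73 ± 0.99, and Cyp51, the lanosterol demethylase, by 1.67 ± 1.06. Nsdhl, a sterol dehydrogenase, differed by 1.57 ± 0.37, Lss, lanosterol synthase, by 1.50 ± 0.74, and Ebp, a sterol isomerase, by 1.44 ± 0.62. Dhcr7 went the other way in 5 of 5 libraries, by −0.48 ± 0.27, short of the fold. Among the 5 cortical clusters the smaller inner one had the highest mean for 17 of the 18 enzymes and for 27 of the 32 genes. The exceptions were Dhcr7 and Scap, highest in the larger inner cluster, and Scarb1, Soat1 and Npc1, highest in the zona fasciculata-like one. For Abcg1 the order means little, since its cortical means were 0.2 to 0.4 CPM.

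Of the regulators, Insig1, itself a sterol-repressed brake on SREBP transport, was higher in the smaller inner cluster by 1.26 ± 0.51. Srebf2 was higher in 5 of 5 libraries by 0.67 ± 0.12. Stard4, a soluble sterol carrier, averaged 26.7 ± 20.6 CPM against 4.08 ± 2.73 CPM and was higher in 4 of 5. Scarb1 was lower by −2.04 ± 0.46, with 529 and 268 CPM in KO and 394, 783 and 1939 CPM in WT. Soat1 was lower by −1.55 ± 0.25, and its highest value in the smaller inner cluster, 408 CPM, lay under its lowest in the zona fasciculata-like one, 561 CPM. In the second list, Cyp11a1 was lower by −1.88 ± 0.52 and Gramd1b higher by 1.03 ± 0.18. There 2 of 36 genes were higher and 5 lower. Of the cholesterol genes short of the fold, Lipe differed by 0.37 ± 0.43, Scap by −0.27 ± 0.39, Npc1 by −0.64 ± 0.29 and Apoe by 0.38 ± 0.80. Acat2, Mvk, Mvd, Tm7sf2, Sc5d, Srebf1, Insig2 and Npc2 had both signs among the 5 libraries.

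Markers of steroid-making cortex were high in the smaller inner cluster and those of other cell types low. The sum of 5 inner cortex markers was 6794 to 14191 CPM there in the KO and WT libraries and 325 to 605 CPM in zona fasciculata-like nuclei. The sum of 6 zona fasciculata markers was 3296 to 4778 CPM, against 7299 to 9290 CPM. The adipocyte, macrophage and T or NK cell lists, of 7 genes each, summed to 7.0 to 21.9, 6.13 to 21.9 and 0 to 16.4 CPM in it, with 1, 0 and 4 of the genes at 0 in all 5 libraries. Genes of steroid-making cells did not all go the same way. Star, the mitochondrial cholesterol carrier, stood at 101 to 152% of its zona fasciculata-like level. Cyp11a1 averaged 372 CPM in the smaller inner cluster, against 1233 CPM in zona fasciculata-like and 425 CPM in zona glomerulosa-like nuclei.

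The larger inner cluster resembled the zona fasciculata-like one more closely. Of 28 cholesterol genes over 5 CPM, 1 was higher by the fold, Abca1, against 1.21% of 10340 genes, and 0 were lower, against 2.39%. Scarb1 averaged 2567 CPM there and 2816 CPM in zona fasciculata-like nuclei, and Dhcr7 89.8 and 88.8 CPM. Between the 2 inner clusters, 10 of 31 genes were higher by the fold in the smaller one, where 1.94% of genes were, and Scarb1 alone was lower, where 5.78% were. Of the 10, Pmvk passed the 5 CPM level through the smaller inner cluster alone, with 4.47 CPM in the larger one.

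Abca1 (chr4:53030787-53159895, minus strand), which exports cholesterol to lipoprotein particles, was graded over the whole cortex. Its mean over the 5 KO and WT libraries was 94.6 ± 27.9 CPM in the zona glomerulosa-like, 260 ± 35.7 CPM in the Oca2, 341 ± 49.8 CPM in the zona fasciculata-like, 958 ± 243 CPM in the larger inner and 1554 ± 565 CPM in the smaller inner cluster (SD, n = 5). The larger inner cluster exceeded the zona fasciculata-like one by 1.47 ± 0.19 on the log2 scale, in 5 of 5 libraries, and the smaller inner one by 2.13 ± 0.35. The ranges of the Oca2 and zona fasciculata-like clusters, and those of both inner clusters, overlapped. In the Oca2 cluster Scarb1 (by 1.75 ± 0.65), Abca1 (1.48 ± 0.30) and Dhcr7 (1.03 ± 0.47) exceeded the zona glomerulosa-like cluster by the fold, 3 of 23 genes against 2.31% of 10444, and 0 of 23 lay lower, against 3.29%. Their means in the Oca2 cluster lay between the zona glomerulosa-like and zona fasciculata-like means.

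**Figure D2:**
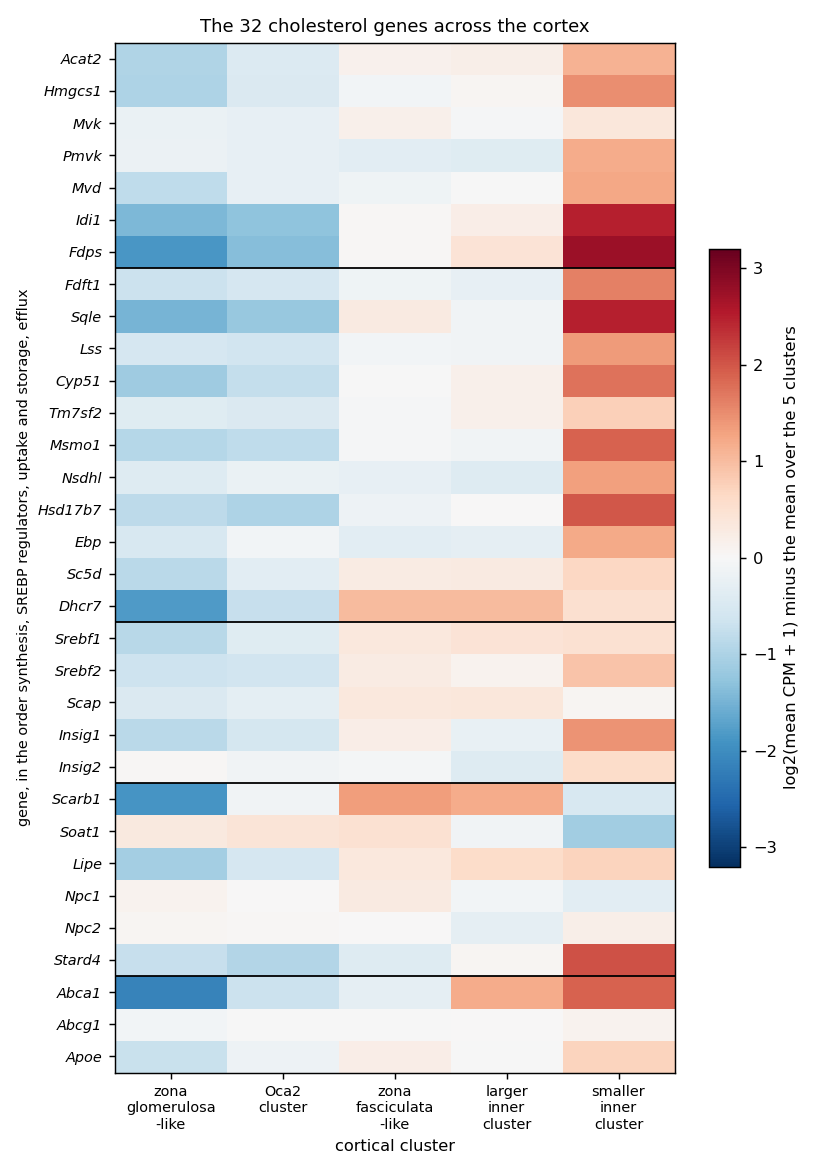
Log2(mean CPM + 1) of the 32 genes in the 5 cortical clusters, each gene minus its own mean over the clusters, over the 5 KO and WT libraries; black lines separate the groups of roles. The smaller inner column is highest for 17 of the 18 enzymes at the top, Scarb1 and Dhcr7 are lowest in the zona glomerulosa-like column, and Soat1 is lowest in the smaller inner column.

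Outside the cortex, the cholesterol genes fell to different classes by role. Nuclei with adipocyte markers carried the most Lipe, the lipase of both triglyceride and cholesteryl ester, at 1742 ± 448 CPM (SD, n = 5), beside 136 ± 22.9 CPM in zona fasciculata-like nuclei. Insig1 ranged there from 210 to 546 CPM around a mean of 338 CPM, and the other means were Hmgcs1 296 ± 59.5 CPM, Sc5d 155 ± 41.2 CPM, Nsdhl 109 ± 27.3 CPM, Srebf1 107 ± 25.4 CPM and Acat2 99.4 ± 25.2 CPM. For each of these 7 genes the adipocyte-like mean was the highest among the 13 classes and clusters compared, and for all but Hmgcs1 the lowest of the 5 adipocyte-like values lay above the highest value of any cortical cluster in these libraries. The enzymes were not uniformly high in these nuclei. Idi1, Fdps and Sqle were higher in the smaller inner cluster, where Sqle averaged 42.2 ± 23.3 CPM beside 13.4 ± 10.5 CPM in adipocyte-like nuclei.

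Macrophage-like nuclei had the highest means of Apoe, Abcg1, Npc2 and Npc1 among the classes and clusters compared, while Abca1 was highest in the smaller inner cluster. Apoe encodes an apolipoprotein, a carrier of exported lipid. It was read in macrophage-like nuclei at 654 and 381 CPM in KO and at 641, 666 and 641 CPM in WT. No cortical cluster exceeded 46.6 CPM of Apoe in any of these libraries. Npc2 averaged 119 ± 23.7 CPM, Npc1 93.0 ± 29.5 CPM and Abcg1 131 ± 37.7 CPM. Abcg1, an exporter to high-density lipoprotein, also reached 65.7 ± 21.3 CPM in endothelium-like nuclei. Schwann- or sustentacular-like nuclei were next for Apoe, at 214 ± 121 CPM, and had the highest mean of Srebf2, 146 ± 54.0 CPM, within the spread of the smaller inner cluster (136 ± 42.0 CPM). They number 21 to 39 in each of the 5 libraries, and their means carry wide spreads.

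Free RNA from cortical cells can reach any droplet, so Scarb1 and Soat1 were read beside Star, a steroidogenic gene, each as a percent of its zona fasciculata-like level. In chromaffin-like nuclei Scarb1 stood at 1.41 to 5.35% and Star at 2.21 to 5.66%, and the ranges overlapped. In endothelium-like nuclei Scarb1 stood at 4.11 to 14.9% and Star at 5.80 to 9.26%, which overlapped too. In 1 endothelium-like cluster, led by Npr3 and Esm1 and singled out after its values were seen, Scarb1 was at 6.00 to 24.7% and Star at 0 to 8.65%. Soat1 was further from Star. A capsule- or fibroblast-like cluster led by Gata4 had Soat1 at 43.5 to 139% of the zona fasciculata-like level (444 to 901 CPM), with Star at 6.83 to 19.4%. In the capsule- or fibroblast-like cluster led by Rspo3, Soat1 was at 7.22 to 16.7%. Both were likewise picked after their values were seen. Macrophage-like nuclei had Soat1 at 19.3 to 57.9%, with Star at 5.60 to 14.6%.

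**Figure D3:**
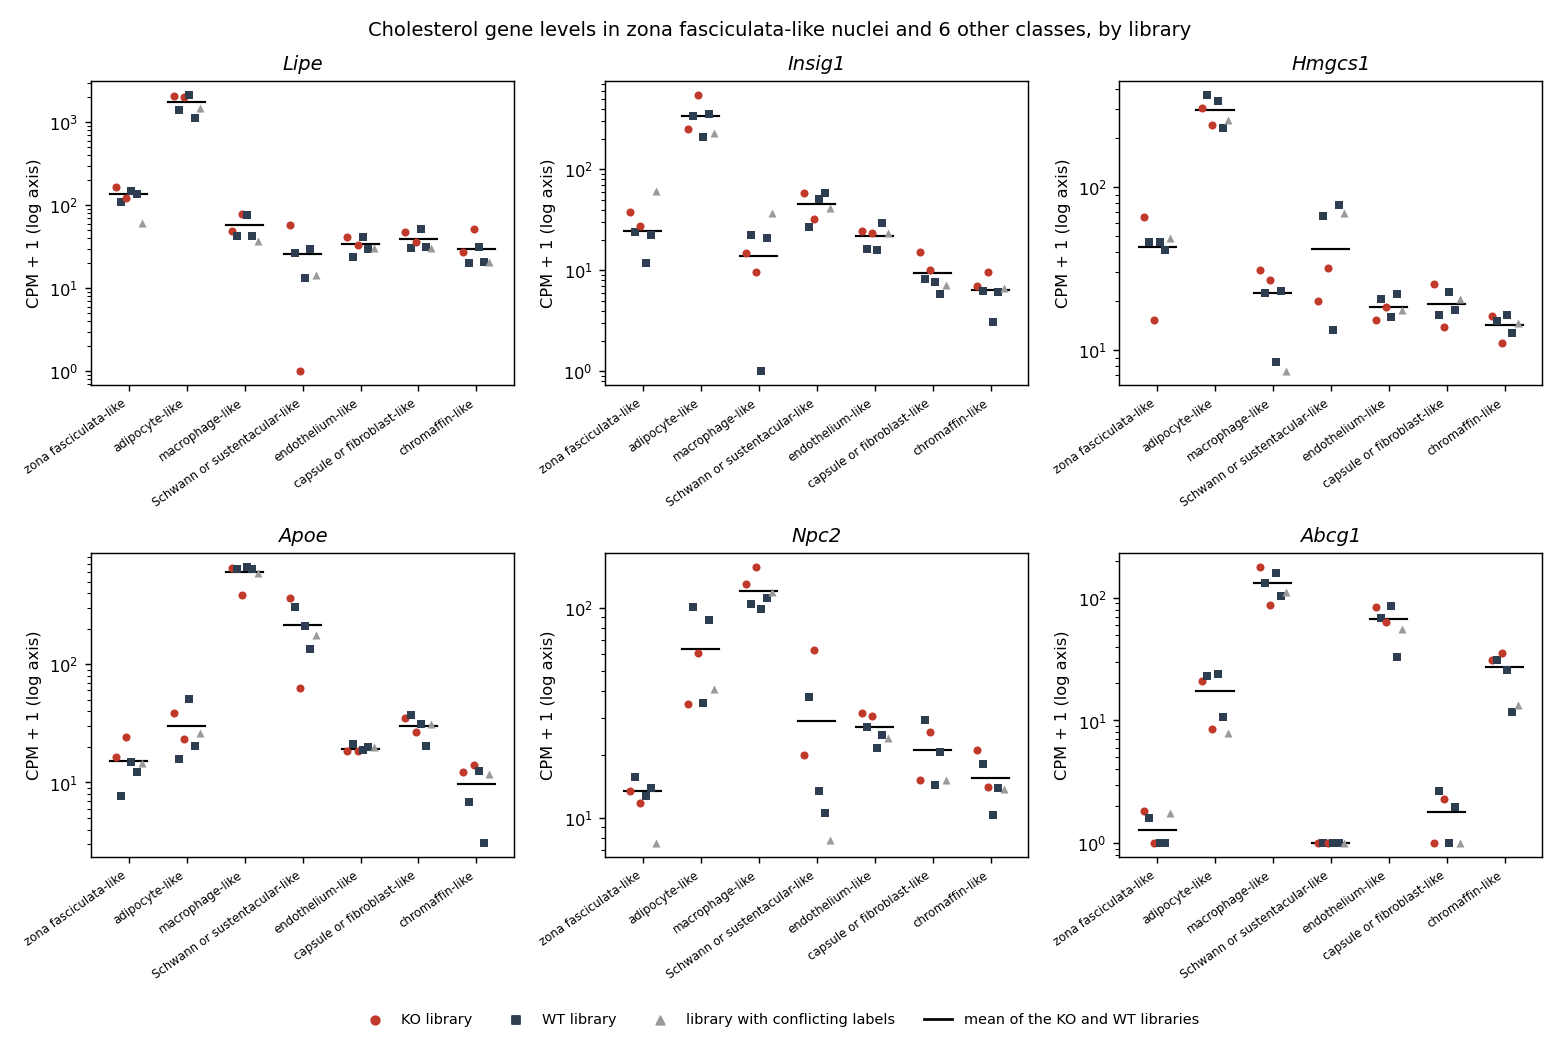
CPM + 1 on a log axis for 6 genes in zona fasciculata-like nuclei and 6 other classes, 1 point per library (circles KO, squares WT, triangles the library with conflicting labels), with lines at the mean of the 5 KO and WT libraries. Lipe, Insig1 and Hmgcs1 are highest in adipocyte-like nuclei, and Apoe, Npc2 and Abcg1 in macrophage-like nuclei.

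Between KO and WT, none of the 32 genes passed the test (edgeR's quasi-likelihood test on summed counts, Benjamini-Hochberg adjusted over all genes of a class) in all nuclei, in all cortical nuclei or in any of the 5 cortical clusters. In zona fasciculata-like nuclei 31 genes were tested and 0 were called, with 0% of 11347 genes called, and 3 had an unadjusted p under 0.05 by edgeR, as did 2.36% of all genes. In zona glomerulosa-like nuclei 26 were tested and 0 called, with 0.501% of 11376 genes called, and 2 had an unadjusted p under 0.05, as did 1369 of the 11376 genes. In all nuclei 32 were tested and 0 called, with 0% of 16582 called, and in all cortical nuclei 31 and 0, with 0% of 14115, each with 3 at an unadjusted p under 0.05, where 1161 and 842 of all genes were. The larger inner, smaller inner and Oca2 clusters had 29, 24 and 25 genes tested and 0 called, where 0%, 0% and 0.00914% of all genes were, with 2, 0 and 2 at an unadjusted p under 0.05, where 2.32%, 3.43% and 4.91% of all genes were. DESeq2's Wald test called 1 of them in all nuclei, Dhcr7, and 0 in all cortical nuclei and in either zone. The median log2 fold over the genes tested was 0.14 for zona fasciculata-like and 0.09 for zona glomerulosa-like nuclei, and over all genes −0.02 and 0.03. None of the second list was called by edgeR in any class, with 38 tested in the zona fasciculata-like and 39 in the zona glomerulosa-like cluster.

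Dhcr7 lay lower in both KO libraries than in all 3 WT libraries in 4 of the 5 cortical clusters, all but the zona glomerulosa-like one, and Scarb1 in the zona fasciculata-like and larger inner clusters. In all cortical nuclei, 2 of 31 genes did so, Scarb1 and Dhcr7, against 7.35% of genes, and in zona fasciculata-like nuclei 3 of 31, these and Npc1, against 6.01%. Those with KO above all WT were 2 (13.1%) and 5 (10%). In the zona glomerulosa-like, Oca2, larger inner and smaller inner clusters, 2, 3, 3 and 3 genes lay below (11.2%, 9.1%, 6.73% and 9.62% of all genes) and 2, 2, 2 and 1 above (14.2%, 10.7%, 11.7% and 10.6%), and in all nuclei 2 below (6.02%) and 2 above (13.2%), Pmvk and Insig1. All of these counts lay within a few genes of what the background shares give. Dhcr7 was read in all cortical nuclei at 39.5 and 29.0 CPM in KO, at 70.0, 48.1 and 61.9 CPM in WT and at 72.3 CPM in the library with conflicting labels. Both KO values lay below the 3 WT values. The log2 fold was −0.92 ± 0.19 (SE), with an adjusted p of 0.518 by edgeR and −0.81 and −0.90 within the 2 annotation batches. It was −0.29 with the library with conflicting labels counted as KO and lay between −1.04 and −0.83 under the other alternatives. Without WT replicate 2 the adjusted p was 0.0104, and without WT replicate 3 it was 0.0344. Over its alternatives it ranged from 0.00158 to 1. In zona fasciculata-like nuclei the Dhcr7 values given above yield −0.85 ± 0.26 (adjusted p = 1.00 by edgeR) and −0.86 and −0.71 within the batches, with an adjusted p of 0.0459 without WT replicate 3, in a range of 0.0459 to 1. With the library with conflicting labels counted as KO the fold there was −0.055. In all nuclei it gave −0.98 ± 0.19 (adjusted p = 0.346 by edgeR, and 0.0125 by DESeq2, in a range of 0.00306 to 1.00), and −0.40 with that library counted as KO. Cortical nuclei made up 48.9 and 41.9% of the kept nuclei in KO and 48.5, 48.4 and 41.4% in WT. The part of the mix of nuclei in these folds was not tested.

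For Scarb1 the size of the difference between KO and WT was unequal in the batches. In all cortical nuclei it was read at 1173 and 689 CPM in KO, at 1290, 1383 and 3048 CPM in WT and at 3622 CPM in the library with conflicting labels. WT replicate 3 stood well above WT replicates 1 and 2. The log2 fold was −1.04 ± 0.40 (SE, adjusted p = 0.791 by edgeR), but −0.14 in the batch of KO replicate 1 and WT replicate 1 and −1.68 in the other. Without WT replicate 2 the adjusted p was 0.0290. Over the alternatives it ranged from 7.48e-08, with no low-count filter, to 1, and the fold from −1.73 to −0.010. In zona glomerulosa-like nuclei, where the KO values 329 and 176 CPM overlap the WT values 266 to 455 CPM, the fold was −0.56 ± 0.12, at an adjusted p of 0.0639 by edgeR. There it was −0.46 and −0.64 within the batches, and without WT replicate 3 the adjusted p was 0.00958, in a range of 0.000706 to 1. The library with conflicting labels had the highest Scarb1 of all 6 in both zones, and counted as KO it turned the fold to 0.92 in zona glomerulosa-like and 0.011 in zona fasciculata-like nuclei.

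Apoe had the opposite sign. In zona fasciculata-like nuclei it was read at 15.4 and 23.3 CPM in KO and at 6.72, 14.0 and 11.2 CPM in WT, for a log2 fold of 1.01 ± 0.43 (SE, adjusted p = 1.00 by edgeR), and of 1.09 and 0.84 within the batches. Its KO and WT values did not overlap there. Lipe gave 0.50 ± 0.21 in zona glomerulosa-like nuclei (adjusted p = 0.355 by edgeR), where its KO and WT values overlapped. Insig1 gave 0.59 ± 0.22 in all nuclei (adjusted p = 0.708 by edgeR), with 36.8 and 30.4 CPM in KO and 20.2, 17.9 and 26.6 CPM in WT. The sum of KO replicate 1 includes 47 nuclei of a hepatocyte-like cluster, 1.46% of that library, against 0 to 2 in each of the other 5 libraries, and these nuclei read Insig1 at 398 CPM. With the hepatocyte-like nuclei left out, an alternative added after seeing the data, KO replicate 1 stood at 25.4 CPM, under WT replicate 3, and the fold was 0.34 ± 0.21 (adjusted p = 0.754 by edgeR). Pmvk in KO replicate 1 likewise fell from 9.87 to 8.51 CPM, under the 9.71 CPM of WT replicate 3, so that neither gene kept both KO values above all WT values. The folds of Dhcr7 and Scarb1 in all nuclei were −0.99 and −1.15 without them, in place of −0.98 and −1.17. Of the 18 enzymes none but Dhcr7 reached an unadjusted p under 0.05 in either zone by edgeR.

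The KO effect in zona fasciculata-like nuclei minus that in zona glomerulosa-like nuclei, tested as an interaction, was not called for any of 31 genes by edgeR, and 0 of them had an unadjusted p under 0.05. Of all 12243 genes 0 were called, which is 0%, and 289 had an unadjusted p under 0.05.

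**Figure D4:**
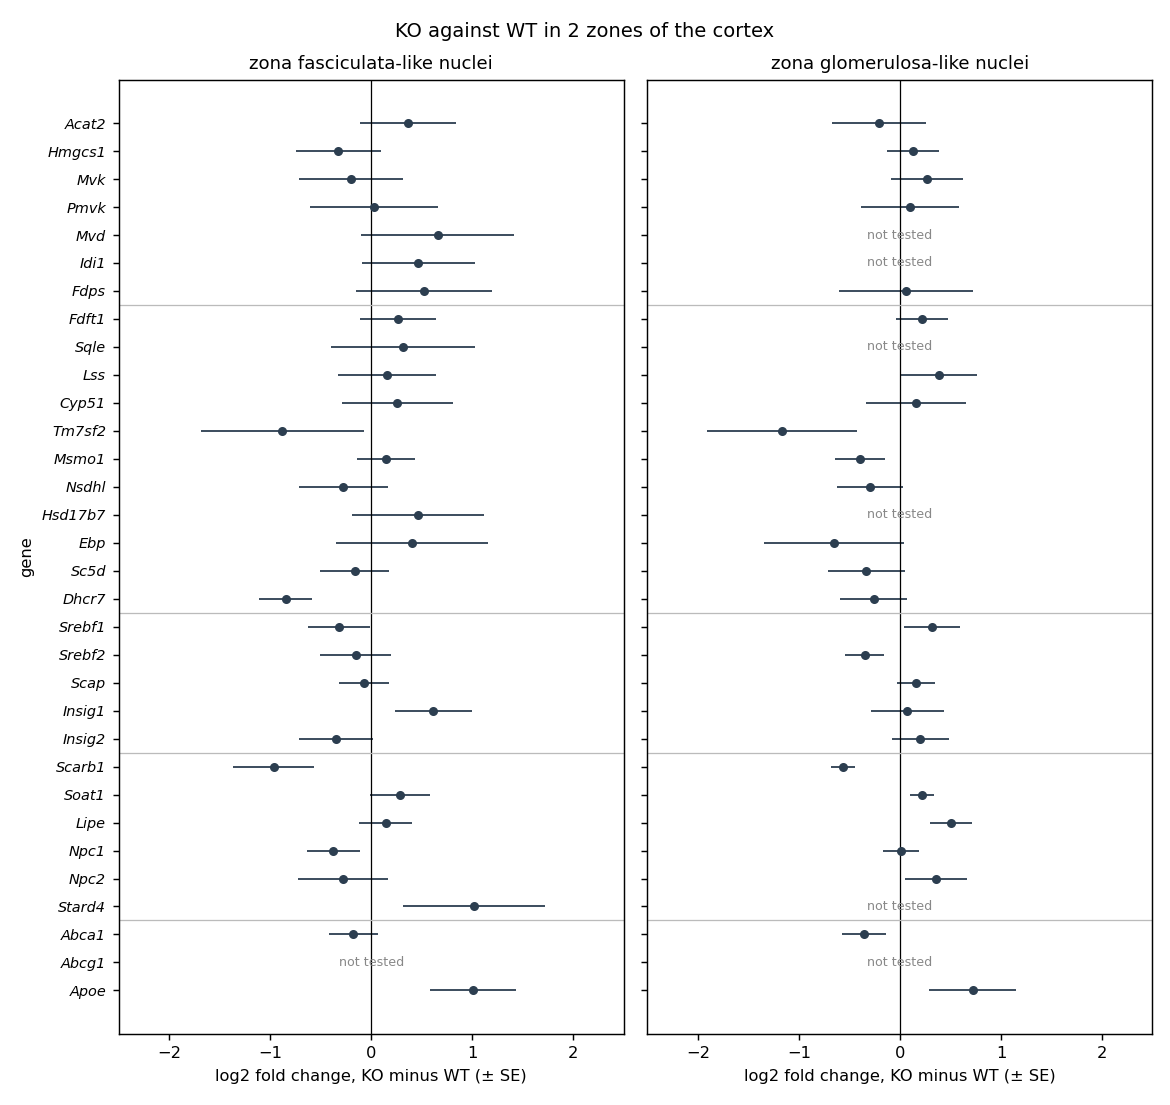
Log2 fold change between KO and WT (points) for the 32 genes in zona fasciculata-like and zona glomerulosa-like nuclei, from 2 KO and 3 WT libraries. Bars are standard errors derived from the F statistic of the test. Genes under the low-count filter are written as not tested. Scarb1 (−0.97), Tm7sf2 (−0.88) and Dhcr7 (−0.85) have the lowest values in zona fasciculata-like nuclei, and no gene in either panel passed the test.

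Among the other classes, 1 of the 32 genes was called in 1 class. In T- or NK-cell-like nuclei, 290 in all, Scarb1 was read at 97.5 and 74.5 CPM in KO, from 10 and 2 UMIs, at 218, 502 and 709 CPM in WT, from 57, 20 and 85 UMIs, and at 767 CPM in the library with conflicting labels. Both KO values lay below all WT values, as they did for 11.2% of the 3007 genes tested. Of the 4 cholesterol genes tested, 2 did so, Scarb1 and Abca1. Scarb1 fell by 1.81 on the log2 scale with an SE of 0.47 (adjusted p = 0.0300 by edgeR). It was the 1 call among the 4, where 1.06% of 3007 genes were called. Within the batches the fold was −1.15 and −3.00, and it was −3.10 without KO replicate 1 and −3.12 without WT replicate 1. The call was lost without KO replicate 2 (log2 −1.13, adjusted p = 1.00) and without WT replicate 3 (−1.63, 0.0716), and by DESeq2 (−1.93, 0.943), in a range of 0.00878 to 1. These nuclei also carried cortical RNA. The sum of 6 zona fasciculata markers, of which 0 were at 0 in all 5 libraries, was 750 and 1043 CPM in KO and 1325 to 3339 CPM in WT. The sum of 8 genes of steroid-making cells of any zone was 1101 and 1528 CPM in KO and 1467 to 4117 CPM in WT, and Star stood at 13.0 to 58.8% of its zona fasciculata-like level. The part of this in the Scarb1 difference was not tested.

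In chromaffin-like nuclei, the cells that give rise to phaeochromocytoma, 27 of the genes were tested and 0 were called by edgeR (0% of 11044). There 21 folds lay above 0 and 6 below, with a median of 0.21 against 0.02 over all genes, and 8 genes had both KO values above all WT values, where 12.5% of genes did, while 0 were below, where 7.57% were. The smallest unadjusted p-values belonged to Lipe, with 38.2 ± 17.2 CPM in KO (SD, n = 2) and 22.9 ± 6.13 CPM in WT (n = 3), whose values overlapped, and Abca1, with 100.4 and 112 CPM in KO and 65.8, 76.6 and 96.8 CPM in WT, which did not. Their log2 folds were 0.73 ± 0.29 and 0.46 ± 0.19 (SE), both with an adjusted p of 0.918 by edgeR. Abca1 in endothelium-like nuclei, at 74.7 and 89.0 CPM in KO and 40.8, 51.7 and 56.9 CPM in WT, gave 0.77 ± 0.21 (adjusted p = 0.791 by edgeR). Its sign was the other in capsule- or fibroblast-like nuclei, at −0.55 ± 0.21 (adjusted p = 0.655 by edgeR). Neither was called, where 0.019% of 10540 and 0.0291% of 10322 genes were. In adipocyte-like nuclei 23 genes were tested and 0 called (0.253% of 6726 genes), and in macrophage-like nuclei 12 and 0 (0.147% of 6815), with 0 and 1 at an unadjusted p under 0.05 by edgeR, where 7.48% and 4.62% of all genes were.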

How the data were processed

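The files hold raw UMI counts per gene and barcode, deposited as filtered matrices, 1 per library. Per the submitters' processing notes they were made with Cell Ranger on mm10, and the gene lists split the libraries into 2 batches, Cell Ranger 4.0.0 (KO replicate 1, WT replicate 1) and Cell Ranger 3.1.0. The labels do not say whether reads in introns were counted. The counting gives 3′ tags without a length scale, so levels are not compared between genes.

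Barcodes with under 300 genes or over 5% mitochondrial counts (48) and 644 doublets marked by scrublet's score at 0.8% per 1000 barcodes were removed (its automatic threshold would have marked 521). The 2000 most variable genes, 30 principal components corrected for library by Harmony, 20 neighbours and Leiden resolution 0.8 gave the clusters (scanpy 1.11.5, Python 3.11.15). A cluster was named "-like" from at least 3 markers of 1 of 19 lists, and 24 of 26 were. KO and WT were compared on counts summed per library and class, with at least 20 nuclei in each, by edgeR 4.0.16's quasi-likelihood test (R 4.3.3, TMM factors, filterByExpr, batch and genotype as terms, Benjamini-Hochberg threshold 0.05). The interaction was fitted on both zones together. The SE given with a fold between KO and WT was derived from the test, as the absolute fold over the square root of edgeR's F statistic. It is unstable for folds near 0. The pseudocount for differences between clusters was 1 CPM. DESeq2 1.42.0 was an alternative. The scripts were tested on simulated data. In simulated zona fasciculata-like counts, 15 of 98 genes with a log2 change of 1 were called, and 81 of 98 with a change of 2. For zona glomerulosa-like counts these were 56 of 97 and 88 of 99. A gene that was not called may thus still differ by such a size. GENCODE positions come from the mm10 annotation and promoters from RefSeq.

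All 32 genes were accounted for, and a gene of the second list was named if it passed the test in a class or had the highest CPM of its role group in zona fasciculata-like nuclei, except 1 that is not reported here. Star was added as a gauge of free RNA. The members, lists, motifs and tests were chosen with earlier results of these data known. Beyond 1 pair of glands per library, nothing in the labels says whether the libraries of a group came from separate animals. If they did not, p-values measure only the spread between libraries. Replicate numbers follow accession order.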

Additional observations from a re-analysis of the deposited data

Results flagged for a closer look

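The library with conflicting labels enters no comparison, and in 7 instances its level of a cholesterol gene lay well above the highest of the 5 KO and WT libraries, beyond its 95% Poisson interval, which covers counting error only. Each of the 32 genes was screened in each class and cluster compared. Other genes and other libraries were not screened, so no background share stands beside the 7. Scarb1 in zona glomerulosa-like nuclei was 1414 CPM (1376 to 1452), with 455 CPM as the highest other library. Idi1 was 37.8 CPM (30.7 to 46.1) in zona fasciculata-like nuclei, against 9.07 CPM. In the larger inner cluster Idi1 was 35.2 CPM (27.1 to 44.9) against 14.4 CPM, Cyp51 55.0 CPM (44.7 to 66.8) against 21.5 CPM, Hsd17b7 37.4 CPM (29.0 to 47.4) against 11.0 CPM and Insig1 59.3 CPM (48.7 to 71.7) against 26.8 CPM. Hsd17b7 in the smaller inner cluster was 154 CPM (119 to 196), against 44.9 CPM. The groups of 2 and 3 libraries were too small to test for a single outlying library.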

How the results depend on the processing

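The 2 KO and 3 WT libraries limit the precision of each fold, as does the depth of KO replicate 2 and WT replicate 2. No paired analysis was possible because the replicate numbers only follow accession order. Without a low-count filter, the genes called were 2 in all nuclei, 2 in all cortical nuclei and 1 in either zone, in place of 0, and DESeq2's Wald test called 1 in all nuclei. Leaving out 1 library at a time gave 0 to 2 in all cortical nuclei (2 without WT replicate 2, 1 without WT replicate 3), 0 to 1 in either zone (1 without WT replicate 3) and 0 to 1 in T- or NK-cell-like nuclei. The 1 call there became 0 with DESeq2, no filter, no batch term, the library with conflicting labels counted as KO or as WT, doublets kept, only nuclei with at least 1000 UMIs, or without KO replicate 2 or WT replicate 3. These alternatives, and those of the smaller inner cluster, were added after seeing the data. Counted as KO, the library with conflicting labels reversed 3 log2 folds: Scarb1 became 0.011 in the zona fasciculata-like and 0.92 in the zona glomerulosa-like cluster, and Dhcr7 0.25 in the latter. Of the KO values for single genes, 193 kept direction and call, 12 gained and 9 lost a call and 3 reversed. All genes called in zona glomerulosa-like nuclei were 57, and 303 without a filter. With the 32 genes allowed among the clustering features, the smaller inner cluster had 6 higher and 0 lower, in place of 13 and 2, and 9 and 10 higher at the other resolutions. None of these clusterings returned the 500 nuclei as a cluster of their own. At resolutions 0.4 and 1.2 the matching cluster held 866 and 890 nuclei, and the zona fasciculata-like class 3310 and 3219 in place of 2162. At 1.2 a cluster of 1127 nuclei led by Elfn1, a leading gene of the larger inner cluster, was named zona fasciculata. Higher genes between the zones were 8 to 12 over all settings, and the causes were not tested.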
